A study of Mus musculus with 2 samples.

Results

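Integrin and laminin subunits were examined in PDGFRa-positive stromal cells of mouse inguinal fat. The genes were chosen by symbol alone, as the alpha and beta subunits of the integrins and the alpha, beta and gamma chains of the laminins, and no measured value entered the choice. They number 37 of the 23647 genes of the table, 26 integrin and 11 laminin subunits, and each of them had a row. Of these, 30 reached a mean of at least 1 CPM (counts scaled to the library total) over both libraries, as did 13684 of all genes. The other 7 were Itgad, Itgae, Itga3, Itgb6, Itgb8, Lama1 and Lama5.

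Integrins are cell surface receptors made of one alpha and one beta subunit, which bind matrix or other cells outside the cell and, through adaptors such as talin and kindlin, the actin cytoskeleton inside it. The beta1 subunit pairs with most alpha subunits of tissue cells, alpha v pairs with several beta subunits, and beta2 and its alpha partners are made by leukocytes. Laminins are trimers of one alpha, one beta and one gamma chain and are the core of basement membranes, the sheets of matrix that surround fat cells, muscle, nerve and vessels. In mesenchymal cells the alpha2 and alpha4 chains with beta1 or beta2 and gamma1 are the usual ones, whereas alpha3 and beta3 belong to the laminin of epithelia.

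Polyadenylated RNA of 2 libraries was sequenced, 1 from Sox9 PreASKO mice and 1 from Sox9 floxed mice. Both came from male mice aged 3 weeks that had received doxycycline on postnatal day 1, and 3 mice were pooled for a library. The stromal vascular fraction was stained for PDGFRa, and the promoter that drives deletion in PreASKO mice is not given in the sources used here. Each genotype has 1 library, so the values carry no replicate check and no test between genotypes was possible.

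The PreASKO library held 37597048 counts and the floxed library 61761645. Sox9, the targeted gene, stood at 17.0 CPM in the PreASKO library, against 28.6 CPM in the floxed library (ratio 0.595, 95% interval 0.542 to 0.651). Counts per gene do not separate the deleted part from the rest. The sex label of 1 library was not borne out: Xist stood at 745 CPM in the library labelled PreASKO and 3.24 CPM in the floxed library, while 4 Y-linked genes summed to 70.5 CPM in PreASKO and 90.8 CPM in floxed. What else differs between the pools besides genotype cannot be told apart from it, and the name PreASKO below means the library so labelled. All 10 markers of adipose stromal cells were present in both libraries, with Pdgfra at 603 CPM in PreASKO and 716 CPM in floxed. The 16 macrophage markers, each of them higher in PreASKO, summed to 2789 CPM there, against 1481 CPM in floxed, and none was at 0 in either. Mature adipocyte markers summed to 87.6 CPM in PreASKO and 162 CPM in floxed.

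**Figure D1:**
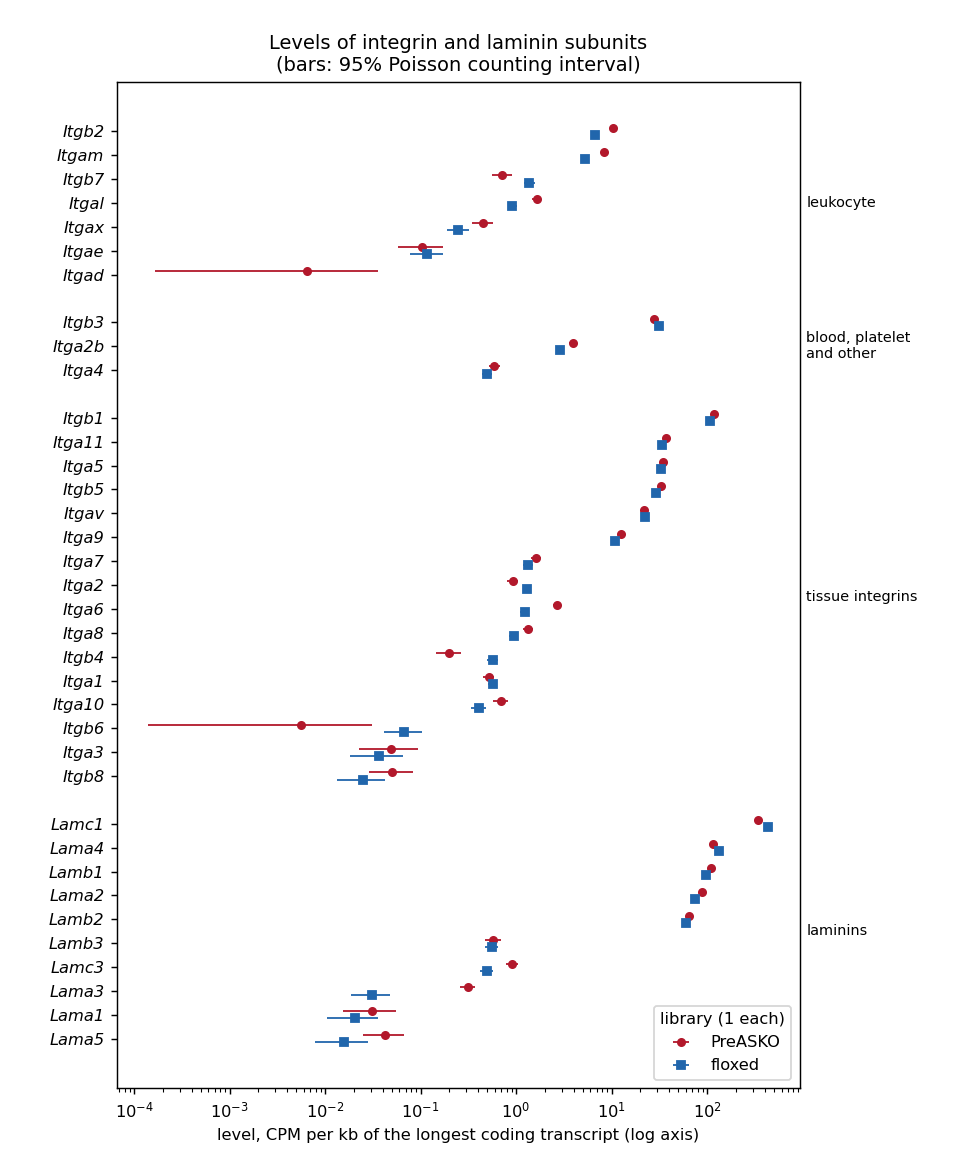
Level of the subunits in CPM per kilobase of its longest coding transcript (log axis), in the PreASKO library (red circles) and the floxed library (blue squares), with 95% Poisson intervals. Lamc1 is the highest in both libraries, at 343 in PreASKO and 436 in floxed, and Itgad is not drawn for floxed because its count there was 0.

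Ratios are of CPM in PreASKO over CPM in floxed, with exact 95% binomial intervals that cover counting error only. Group summaries use log2 of CPM + 1, which understates differences of low genes. By that measure 2 of the 30 measured subunits, Itga6 and Lama3, passed 2-fold upward in PreASKO and 1, Itgb4, passed it downward. Across all genes measured, 2.11% passed upward and 1.52% downward. At 1.5-fold, 6 subunits were higher and 2 lower, where 7.89% of all genes were higher and 8.18% lower. The median log2 ratio of the 30 was 0.16, against -0.04 over all genes measured, and 21 of the 30 were above 0, against 45.5% of all genes. The counting interval of the ratio lay above 1 for 18 of the 30, below 1 for 7 and across 1 for 5, where it lay above 1 for 33.4% of all genes and below 1 for 41.4%. Over all 37 subunits, low ones included, the median was 0.14. Lama3 reached the mean of 1 CPM only through its PreASKO value, so that it had to differ.

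**Figure D2:**
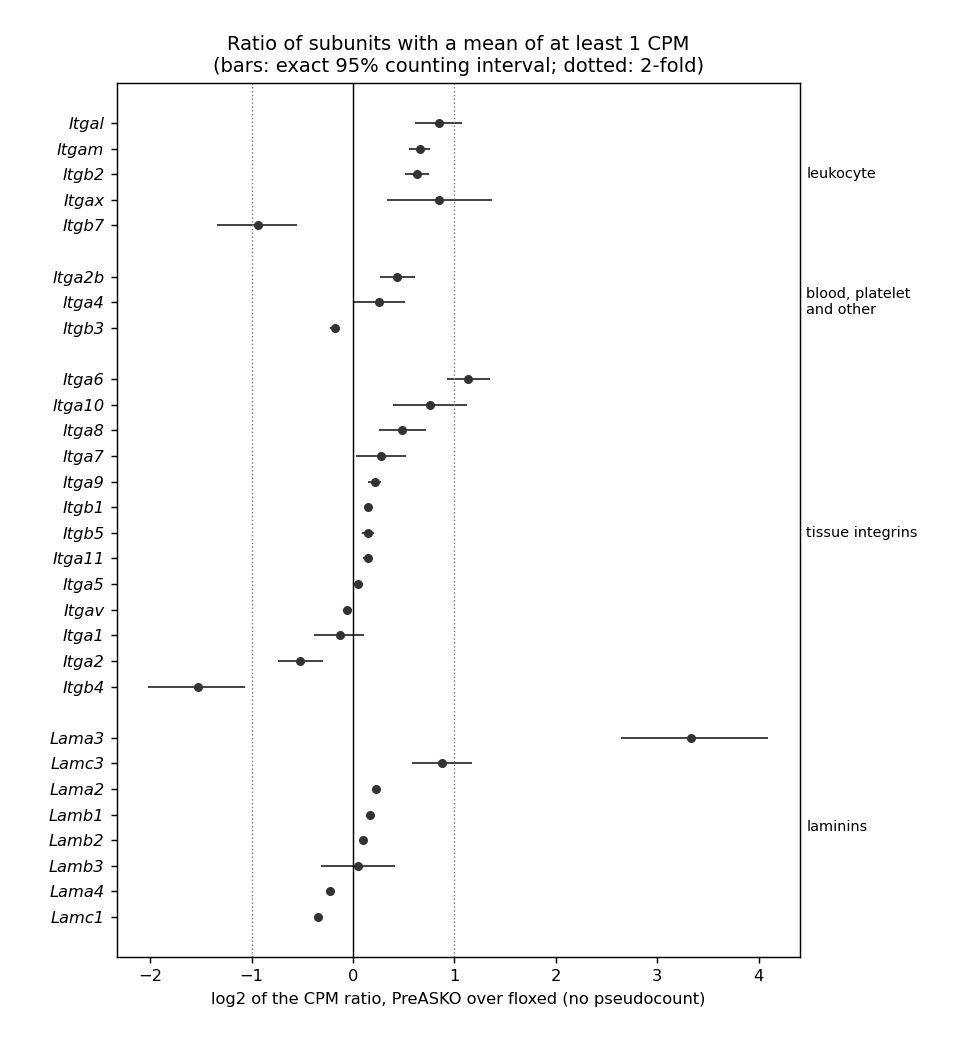
Log2 of the CPM ratio of PreASKO over floxed for measured subunits, with no pseudocount added, grouped as leukocyte, mixed and tissue integrins and laminins. Bars are exact 95% counting intervals and dotted lines mark 2-fold. Itgal, Itgam, Itgb2 and Itgax lie to the right and Itgb7 to the left, while the abundant tissue integrins Itgb1, Itgb5, Itga11, Itga5 and Itgav lie near 0.

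Leukocyte integrins were mostly higher in the PreASKO library. Of 7 such subunits 5 were measured, 4 of them higher and 1 lower, with a median log2 ratio of 0.61. Of all genes measured 45.5% were higher, with a median of -0.04. Summed over all 7, they stood at 82.2 CPM in PreASKO and 54.2 CPM in floxed, a ratio of 1.51 (1.44 to 1.59). At 1.5-fold 3 were higher and 1 lower, where 7.89% of all genes measured were higher and 8.18% lower, and none passed 2-fold.

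Itgb2, the shared beta chain of the leukocyte integrins (gene ID 16414; chromosome 10, 77530329 to 77565708, GRCm38), was at 30.8 CPM in PreASKO and 19.9 CPM in floxed (ratio 1.55, 1.43 to 1.68). Itgam, the CD11b chain of macrophages and neutrophils (ID 16409; chromosome 7, 128062640 to 128118491), was at 38.6 CPM in PreASKO and 24.5 CPM in floxed (1.58, 1.47 to 1.70). Itgal, the CD11a chain found across leukocytes (ID 16408), was at 8.59 CPM in PreASKO and 4.78 CPM in floxed (1.80, 1.53 to 2.11). All 3 chains were higher in PreASKO, and the proportion of each alpha chain to the beta chain was close in both libraries. Per kilobase, Itgam stood at 0.797 times Itgb2 in PreASKO and at 0.782 times in floxed, and the quotient of these proportions was 1.02 (0.914 to 1.13). For Itgal over Itgb2 the proportions were 0.159 in PreASKO and 0.137 in floxed, with a quotient of 1.16 (0.972 to 1.39). Both intervals include 1. In GENCODE, 68.7% of the exonic bases of Itgam are shared with Gm49368 on the same strand, so reads could be divided between them and the value of Itgam is uncertain.

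Itgax, the CD11c chain of dendritic cells and some macrophages, was near the lower limit of measurement with 68 counts in PreASKO and 62 in floxed, at 1.81 CPM in PreASKO and 1.004 CPM in floxed (ratio 1.80, 1.26 to 2.58). The exception was Itgb7, the beta chain that with alpha4 or alpha E serves lymphocyte homing to the gut. It stood at 1.92 CPM in PreASKO (72 counts) and 3.68 CPM in floxed (227 counts), a ratio of 0.521 (0.394 to 0.682). Its partner Itgae, at 15 counts in PreASKO and 28 in floxed, and Itgad, at 1 count in PreASKO and 0 in floxed, were below the minimum.

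Macrophage markers moved with these integrins. Led in level by Lyz2 (843 CPM in PreASKO and 387 CPM in floxed), C1qb (360 CPM in PreASKO and 190 CPM in floxed) and C1qc (337 CPM in PreASKO and 167 CPM in floxed), their median log2 ratio was 0.82, with 11 of 16 at least 1.5-fold higher, and their sum differed by a ratio of 1.88, above that of the summed leukocyte integrins. Over all genes measured, 45.5% were higher by any amount and 7.89% were at least 1.5-fold higher. Ptprc, the pan-leukocyte CD45 gene, stood at 21.8 CPM in PreASKO and 10.04 CPM in floxed. Dendritic cell markers, a list that holds Itgax, had 5 of 7 measured genes higher and summed to 442 CPM in PreASKO and 197 CPM in floxed, mostly from the antigen presentation genes Cd74, H2-Aa and H2-Ab1, while Flt3 had 2 counts in PreASKO and 27 in floxed and Xcr1 had 17 counts in PreASKO and 0 in floxed. Markers of T and NK cells were low, with 2 of 10 genes measured, Cd8a and Klrb1c at 0 in PreASKO and Nkg7 at 0 in floxed. They summed to 11.3 CPM in PreASKO and 7.69 CPM in floxed, and Cd4 alone, at 7.39 CPM in PreASKO and 2.80 CPM in floxed, gave the sum its direction. Cd3e had 1 count in PreASKO and 91 in floxed, and Cd2 had 37 counts in PreASKO and 114 in floxed. Trac was lower too, with 18 counts in PreASKO and 53 in floxed. The other way went Cd3g (39 counts in PreASKO and 2 in floxed), Cd3d (18 in PreASKO and 4 in floxed) and Lck (34 in PreASKO and 19 in floxed). The T and NK cell list thus had no shared direction. B cell markers summed to 4.20 CPM in PreASKO and 2.57 CPM in floxed. Cd79b alone, at 2.13 CPM in PreASKO and 0.405 CPM in floxed, gave that sum its direction. It reached the minimum only through PreASKO. Neutrophil and mast cell markers summed to 19.5 CPM in PreASKO and 20.7 CPM in floxed. Their part in the integrin values was not tested, and in bulk RNA more cells of a type cannot be told apart from more RNA per cell. Adaptors that act with leukocyte integrins had 7 of 8 genes measured, all 7 higher, with a median of 0.48, against -0.04 over all genes. Parvg, below the minimum, went the other way with 12 counts in PreASKO and 32 in floxed. Fyb, an adaptor of leukocyte integrin activation, stood at 29.0 CPM in PreASKO and 13.5 CPM in floxed. Fermt3, the kindlin of blood cells, stood at 16.7 CPM in PreASKO and 9.33 CPM in floxed. Rasgrp2 stood at 2.98 CPM in PreASKO and 1.41 CPM in floxed, and Tyrobp, also on the macrophage list, at 105 CPM in PreASKO and 75.01 CPM in floxed.

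Upstream sequences are shown for Itgam and Itgax, which lie close together on chromosome 7 and were both higher, and for Itgb1, the most abundant integrin. Each is the 250 bases before the first start site listed for the gene among the RefSeq promoters (GRCm38.p6), read 5′ to 3′ on the plus strand, and the last bases of the Itgax window lie past the start that the RefSeq gene table gives. Itgam lies at chr7:128062390-128062639, Itgax at chr7:128129300-128129549 and Itgb1 at chr8:128685404-128685653. Capitals mark GAGGAA, a core bound by the myeloid factor PU.1 among other ETS proteins, and GGGCGG, the GC box, each on either strand.
Itgam: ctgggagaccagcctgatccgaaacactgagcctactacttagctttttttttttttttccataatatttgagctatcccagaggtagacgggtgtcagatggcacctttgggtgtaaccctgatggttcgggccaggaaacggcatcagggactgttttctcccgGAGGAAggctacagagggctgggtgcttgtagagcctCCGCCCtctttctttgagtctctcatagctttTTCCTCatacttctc
Itgax: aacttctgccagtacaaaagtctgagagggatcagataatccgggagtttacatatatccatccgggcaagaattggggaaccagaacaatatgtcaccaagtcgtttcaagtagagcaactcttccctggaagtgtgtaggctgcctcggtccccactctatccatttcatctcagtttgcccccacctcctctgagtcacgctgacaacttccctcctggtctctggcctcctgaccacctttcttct
Itgb1: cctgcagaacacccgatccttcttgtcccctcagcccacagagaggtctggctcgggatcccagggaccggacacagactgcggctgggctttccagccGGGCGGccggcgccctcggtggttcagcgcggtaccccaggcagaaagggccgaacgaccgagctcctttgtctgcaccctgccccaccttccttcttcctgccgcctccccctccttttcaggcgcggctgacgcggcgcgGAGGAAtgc
The Itgam window held GAGGAA on each strand and 1 GC box, the Itgb1 window held 1 of each, and the Itgax window held neither. GAGGAA or its reverse TTCCTC was present in 23.1% of 27025 such windows, and GGGCGG or its reverse CCGCCC in 32.9%. A window was found for 23 subunits, of which 11 held the first motif and 8 the second, and TATAAA, present in 13.0% of all windows, was in none of the 23. The marked sites do not overlap one another, and a match is a description of the sequence only.

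Subunits made both by blood cells or platelets and by other cells did not share a direction. Itgb3, which pairs with alpha v on tissue cells and with alpha IIb on platelets, stood at 160.2 CPM in PreASKO and 181 CPM in floxed, a ratio of 0.883 (0.856 to 0.911). Itga2b, the alpha IIb chain, stood at 13.6 CPM in PreASKO and 10.01 CPM in floxed (1.36, 1.20 to 1.53). Itga4, which binds VCAM1 and fibronectin, stood at 5.77 CPM in PreASKO and 4.83 CPM in floxed, with an interval that includes 1 (1.20, 0.9996 to 1.43). Of 7 platelet and megakaryocyte markers with a row 3 were measured. Pf4, which macrophages also make, accounted for nearly all of their sum at 353 CPM in PreASKO and 233 CPM in floxed, while Treml1 was at 0 in PreASKO and Gp9 at 0 in floxed. The part of platelets in Itga2b was not tested. Most reads of Itga4 (95.9% in PreASKO and 87.6% in floxed) were in the raw count.

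Tissue integrins differed little between the libraries where they were abundant. Of 16 subunits 13 were measured, 9 higher and 4 lower, with a median log2 ratio of 0.14. Among all genes measured 45.5% were higher and the median was -0.04. Itgb1 (ID 16412; chromosome 8, 128685654 to 128733579), the common beta chain, was the most abundant integrin at 449 CPM in PreASKO and 405 CPM in floxed, a ratio of 1.11 (1.09 to 1.13). Itgb5, a partner of alpha v that binds vitronectin, stood at 107 CPM in PreASKO and 96.6 CPM in floxed, also a ratio of 1.11 (1.06 to 1.15). Per kilobase, Itgb1 made up 62.2% of all beta chains in PreASKO and 60.4% in floxed. Itgb5 followed with 17.2% in PreASKO and 16.8% in floxed, and Itgb3 with 14.6% in PreASKO and 17.8% in floxed. Relative to Itgb1, the interval for Itgb5 includes 1 (0.277 per kilobase in both, quotient 0.998, 0.955 to 1.04), whereas Itgb3 was lower (0.235 in PreASKO and 0.295 in floxed, quotient 0.797, 0.768 to 0.827). These proportions do not depend on the scaling of the libraries. The beta chains of epithelia and of TGF-beta activation were below the minimum, with Itgb6 at 1 count in PreASKO and 20 in floxed and Itgb8 at 16 counts in PreASKO and 13 in floxed.

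Of the alpha chains that bind RGD sequences in fibronectin, vitronectin and latent TGF-beta, the abundant Itga5 and Itgav were nearly level. Itga5, the fibronectin receptor chain, stood at 149 CPM in PreASKO and 144 CPM in floxed (1.03, 0.9999 to 1.07). Itgav stood at 152 CPM in PreASKO and 158 CPM in floxed (0.963, 0.932 to 0.995). Itga8, a nephronectin receptor of mesenchymal and smooth muscle cells, was much lower in level and stood at 7.74 CPM in PreASKO and 5.52 CPM in floxed (1.40, 1.19 to 1.64). For Itga5 the authors' deposited table gives a fold of 0.662, against 1.03 from the summed counts. Relative to Itgb1, Itga5 had a quotient of 0.933 (0.897 to 0.970) and Itgav one of 0.869 (0.837 to 0.903).

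Among the collagen receptors, Itga11 was by far the most abundant and was slightly higher in PreASKO. This fibrillar collagen receptor of fibroblasts (ID 319480; chromosome 9, 62677855 to 62783979) stood at 184 CPM in PreASKO and 166 CPM in floxed, with a ratio of 1.11 (1.07 to 1.14), and its proportion to Itgb1 was 0.315 in both (per kilobase, quotient 0.997, 0.962 to 1.03). Itga11 was also the highest of all alpha chains per kilobase in both libraries, followed by Itga5, with overlapping counting intervals in floxed. Itga1, a receptor for basement membrane collagen, was at 5.69 CPM in PreASKO and 6.23 CPM in floxed with an interval that includes 1 (0.769 to 1.08). Itga2, a collagen receptor of epithelia and platelets, was lower at 6.52 CPM in PreASKO and 9.33 CPM in floxed (0.699, 0.599 to 0.813), and the authors' deposited table gives 0.488. Itga10, the collagen receptor of cartilage, was higher at 3.48 CPM in PreASKO and 2.06 CPM in floxed (1.69, 1.32 to 2.18). In GENCODE 33.5% of its exonic bases are shared with Gm42957 on the same strand, so its value is uncertain. Itga9, a receptor for tenascin-C and VCAM1, stood at 87.9 CPM in PreASKO and 75.8 CPM in floxed (1.16, 1.11 to 1.21).

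Integrin chains that bind laminin were low, and they included both subunits past 2-fold in this family. Itga6, which pairs with beta1 or beta4 (ID 16403; chromosome 2, 71786886 to 71858427), stood at 11.6 CPM in PreASKO (438 counts) and 5.29 CPM in floxed (327 counts), with a ratio of 2.20 (1.90 to 2.55). Itgb4, the hemidesmosome chain that pairs with alpha6 alone (ID 192897; chromosome 11, 115974725 to 116008412), went the other way at 1.22 CPM in PreASKO (46 counts) and 3.53 CPM in floxed (218 counts), a ratio of 0.347 (0.247 to 0.478). Itga7, the laminin receptor of muscle and mural cells, stood at 6.49 CPM in PreASKO and 5.36 CPM in floxed (1.21, 1.02 to 1.43), and Itga3 had 9 counts in PreASKO and 11 in floxed. The alpha6 chain and its partner beta4 thus differed in opposite directions. At a pseudocount of 5 neither passed 2-fold, with log2 ratios of 0.69 for Itga6 and -0.45 for Itgb4.

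Markers of other cells that make these chains were as follows. Of 11 endothelial markers 9 were higher, where 45.5% of all genes measured were, and the median log2 ratio was 0.66. Of the 9, Esam, Erg, Egfl7 and Vwf were below 1 CPM in floxed. They reached the minimum only through PreASKO, so that they had to be higher. The others included Kdr, at 11.1 CPM in PreASKO and 5.003 CPM in floxed and Cdh5 at 7.42 CPM in PreASKO and 3.63 CPM in floxed. The most abundant ones differed little. Lyve1 stood at 247 CPM in PreASKO and 239 CPM in floxed. Tek, at 147 CPM in PreASKO and 154 CPM in floxed, and Eng, at 65.0 CPM in PreASKO and 67.8 CPM in floxed, were the 2 lower ones. The sum of the list, led by Lyve1 and Tek, was 501 CPM in PreASKO and 482 CPM in floxed. Epithelial markers were at or near 0, with a sum of 0.798 CPM in PreASKO and 0.729 CPM in floxed over 5 genes, Krt14 at 0 in PreASKO and Epcam at 0 in floxed. Schwann cell markers summed to 52.5 CPM in PreASKO and 51.0 CPM in floxed, and Sox10 had 29 counts in PreASKO and 0 in floxed. Mural markers summed to 513 CPM in PreASKO and 551 CPM in floxed and skeletal muscle markers to 10.1 CPM in PreASKO and 10.3 CPM in floxed. The part of these cells in the values of Itga6, Itga7 and Itgb4 was not tested.

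**Figure D3:**
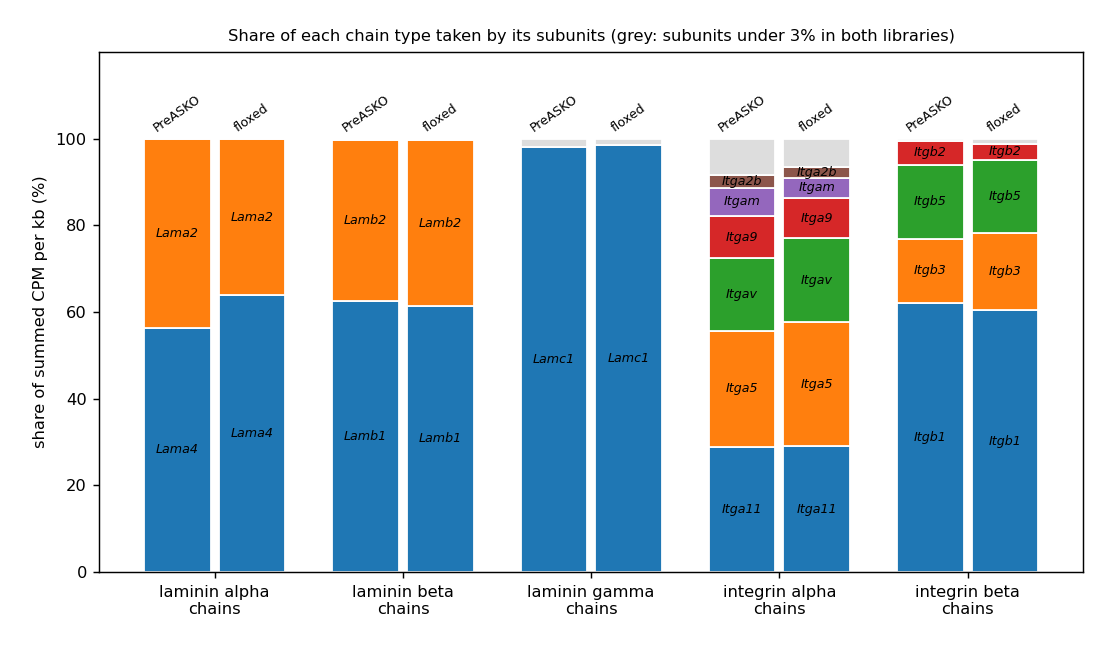
Share of each subunit in the summed CPM per kilobase of its chain type, with the PreASKO library left of the floxed library in each pair. Lama2 takes 43.5% of laminin alpha chains in PreASKO and 36.1% in floxed, and Lama4 56.3% in PreASKO and 63.9% in floxed. Among integrin beta chains Itgb3 takes 14.6% in PreASKO and 17.8% in floxed, and Itgb2 5.47% in PreASKO and 3.80% in floxed.

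Laminin chains of the mesenchymal type made up nearly all laminin RNA, and within them the alpha chains differed in balance. Of 11 laminin subunits 9 were measured, 6 higher and 3 lower in PreASKO, with a median log2 ratio of 0.10. For all genes measured the share higher was 45.5% and the median -0.04. Lama2, the merosin chain of muscle and nerve basement membranes (ID 16773; chromosome 10, 26981285 to 27617191), was at 846 CPM in PreASKO and 722 CPM in floxed (ratio 1.17, 1.15 to 1.19). Lama4, the alpha chain of vessel and fat cell basement membranes (ID 16775; chromosome 10, 38965515 to 39110188), was at 688 CPM in PreASKO and 804 CPM in floxed (0.857, 0.844 to 0.870). Per kilobase Lama4 stood at 1.29 times Lama2 in PreASKO and 1.77 times in floxed, a quotient of 0.731 (0.716 to 0.747). With the repeat-distributed count alone the quotient was 0.720, and with the raw count alone, which held few reads of Lama2 (0.101% in PreASKO and 0.168% in floxed), it was 1.40 (0.922 to 2.12). Per kilobase Lama4 was first and Lama2 second among the alpha chains in both libraries, while in CPM Lama2 was first in PreASKO and Lama4 in floxed.

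The beta chains were close to level. Lamb1 (ID 16777; chromosome 12, 31265146 to 31329644) stood at 626 CPM in PreASKO and 557 CPM in floxed (1.12, 1.11 to 1.14), and Lamb2 stood at 361 CPM in PreASKO and 338 CPM in floxed (1.07, 1.05 to 1.09). Lamb2 was 0.593 times Lamb1 per kilobase in PreASKO and 0.623 times in floxed (quotient 0.952, 0.927 to 0.979). Lama2 and Lamb1 kept nearly the same proportion (0.812 in PreASKO and 0.780 in floxed, quotient 1.04, 1.02 to 1.06).

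Lamc1, the gamma chain that nearly all laminins share (ID 226519; chromosome 1, 153218922 to 153332786), was the highest subunit of the set and the most abundant one to be lower. It stood at 2611 CPM in PreASKO (98169 counts) and 3324 CPM in floxed (205309 counts), a ratio of 0.785 (0.780 to 0.791). Per kilobase that was 3.16 times Lamb1 in PreASKO and 4.53 times in floxed. Of the counts of Lamc1, 60.1% in PreASKO and 63.1% in floxed were raw counts. With the repeat-distributed count alone the proportion to Lamb1 was 1.29 in PreASKO and 1.73 in floxed, and its quotient was 0.745 (0.730 to 0.761) against 0.698 (0.686 to 0.711) with both counts. Lamc1 was therefore lower relative to Lamb1 in both of these counts, but not in the raw count alone (1.07, 0.967 to 1.19), which holds 2.15% of the Lamb1 counts in PreASKO and 3.47% in floxed. In the authors' deposited table the fold of Lamc1 was 0.690.

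Lama3 and Lamb3, laminin chains of epithelial type, were low. Lama3 (ID 16774; chromosome 18, 12333417 to 12583013) had 123 counts in PreASKO and 20 in floxed, at 3.27 CPM in PreASKO and 0.324 CPM in floxed, a ratio of 10.1 (6.27 to 17.1). Lamb3, its partner, stood at 2.82 CPM in PreASKO and 2.72 CPM in floxed (1.04, 0.805 to 1.33). All of the Lama3 counts were in the repeat-distributed column. At a pseudocount of 5 the log2 ratio of Lama3 was 0.64, against 1.69 at 1. Lamc3, a gamma chain of nerve, skin and testis, stood at 5.29 CPM in PreASKO and 2.88 CPM in floxed (1.84, 1.49 to 2.26). Its direction differed between the columns, with a log2 ratio of 1.46 in raw counts and -0.40 in repeat-distributed ones. Lama1, the embryonic alpha chain, had 11 counts in PreASKO and 12 in floxed, and Lama5, the alpha chain of vessels and epithelia, had 18 counts in PreASKO and 11 in floxed.

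**Figure D4:**
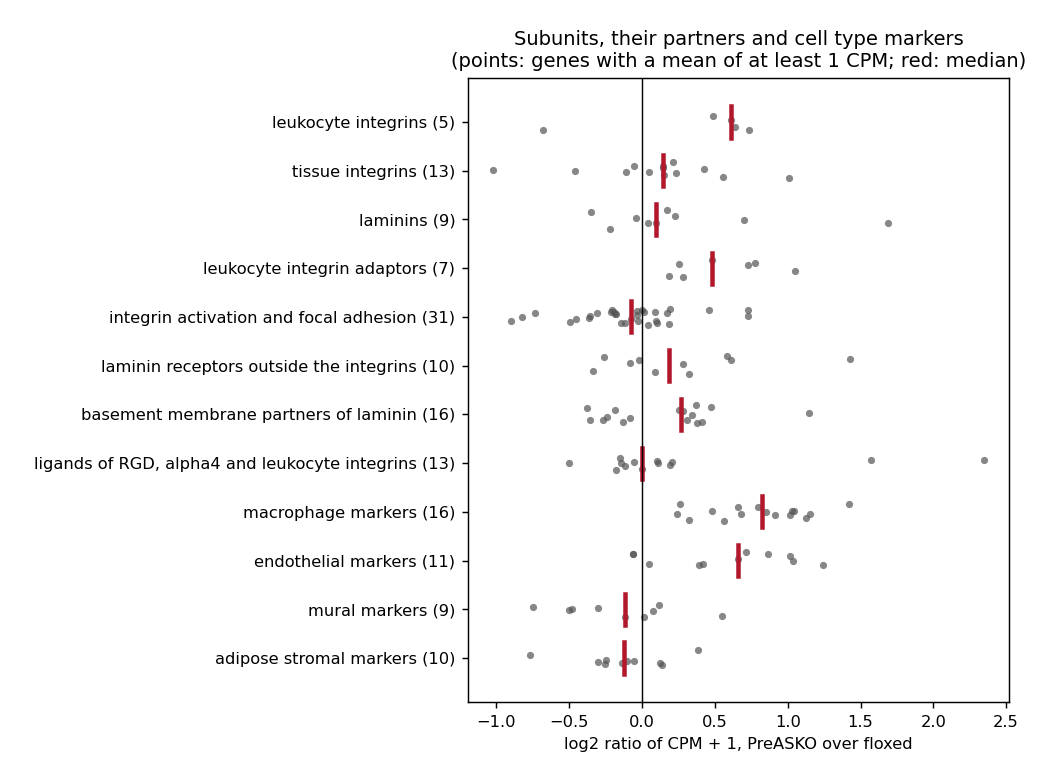
Log2 ratio of CPM + 1, PreASKO over floxed, for the measured genes of each list (points, number in brackets) with the list median (red). Leukocyte integrins (median 0.61), leukocyte integrin adaptors (0.48), macrophage markers (0.82) and endothelial markers (0.66) lie to the right. Some of the endothelial markers reached the minimum only through PreASKO. Basement membrane partners (0.27) lie between, while tissue integrins (0.14), laminins (0.10) and focal adhesion genes (-0.08) lie near 0.

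Genes that act with these receptors were taken from lists chosen by function. All 31 genes of integrin activation and focal adhesions with a row were measured, 11 higher and 20 lower, and none passed 2-fold. The higher ones were 35.5% of the list, against 45.5% of all genes measured. The median log2 ratio was -0.08, close to the -0.04 of all genes measured. At 1.5-fold 2 were higher, Parvb (10.6 CPM in PreASKO and 6.02 CPM in floxed) and Vasp (6.09 CPM in PreASKO and 3.29 CPM in floxed), and 3 were lower. Both directions together made 16.1% of the list, the same as the 16.1% of all genes measured (7.89% higher and 8.18% lower). Nedd9, a scaffold of focal adhesions, stood at 16.8 CPM in PreASKO and 32.2 CPM in floxed (0.521, 0.475 to 0.570). Src, the kinase that acts there with focal adhesion kinase, stood at 8.25 CPM in PreASKO and 15.4 CPM in floxed (0.535, 0.470 to 0.609). Lims2, a member of the complex of integrin-linked kinase, stood at 30.8 CPM in PreASKO and 52.0 CPM in floxed. The abundant genes of the list were not alike. Tns1, the highest in level, stood at 585 CPM in PreASKO and 676 CPM in floxed. Kank2, the next, was slightly higher at 322 CPM in PreASKO and 299.8 CPM in floxed (1.08, 1.05 to 1.10). Actn4 (1.07, 1.04 to 1.10), Fyn (1.14, 1.11 to 1.17) and Crk (1.13, 1.09 to 1.17) were slightly higher too. Kindlin-2 (Fermt2) stood at 227 CPM in PreASKO and 232 CPM in floxed. Talin-1 (Tln1) stood at 179 CPM in PreASKO and 194 CPM in floxed. Integrin-linked kinase (Ilk) was lower, at 185 CPM in PreASKO and 230.2 CPM in floxed (0.805, 0.782 to 0.829), as was its partner Parva, at 200.1 CPM in PreASKO and 283 CPM in floxed (0.707, 0.689 to 0.727). Paxillin (Pxn) stood at 103 CPM in PreASKO and 133 CPM in floxed (0.776, 0.746 to 0.806).

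Laminin receptors other than integrins had 6 of 10 measured genes higher and a median of 0.19. Over all genes measured, 45.5% were higher, with a median of -0.04. Dag1, which encodes dystroglycan, the main receptor for laminin alpha2, was the most abundant and stood at 606 CPM in PreASKO and 764 CPM in floxed (0.793, 0.781 to 0.806). Bcam, a receptor for laminin alpha5 on vessels and red cells, stood at 3.86 CPM in PreASKO and 0.810 CPM in floxed. Sdc1 stood at 62.0 CPM in PreASKO and 40.2 CPM in floxed and Dmd, which links dystroglycan to actin, at 35.4 CPM in PreASKO and 23.3 CPM in floxed.

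Basement membrane partners of laminin had 9 of 16 measured genes higher and a median of 0.27, against 45.5% and -0.04 over all genes measured. The type IV collagen genes Col4a1 (1939 CPM in PreASKO and 1565 CPM in floxed) and Col4a2 (1518 CPM in PreASKO and 1094 CPM in floxed) were higher in PreASKO, whereas perlecan, encoded by Hspg2, was slightly lower at 1274 CPM in PreASKO and 1397 CPM in floxed. Of the minor type IV chains, Col4a3 stood at 11.5 CPM in PreASKO and 8.44 CPM in floxed and Col4a6 at 2.18 CPM in PreASKO and 3.12 CPM in floxed. Npnt, the ligand of alpha8 beta1, was low at 2.29 CPM in PreASKO and 0.486 CPM in floxed. Among ligands of the RGD-binding, alpha4 and leukocyte integrins, 6 of 13 measured genes were higher, near the 45.5% of all genes, with a median of -0.0002. Fn1, which encodes fibronectin, stood at 7789 CPM in PreASKO and 8453 CPM in floxed, and Thbs1 at 168 CPM in PreASKO and 238 CPM in floxed. The ligands past 2-fold were Tnc, a ligand of alpha9 beta1, at 16.2 CPM in PreASKO and 2.38 CPM in floxed, and Spp1, which encodes osteopontin and is also made by macrophages, at 3.70 CPM in PreASKO and 0.583 CPM in floxed. Spp1, like Npnt and Bcam above, reached the minimum only through its PreASKO value, so that all 3 had to be higher, and they are part of the counts of their lists. Vcam1 (149 CPM in PreASKO and 129 CPM in floxed) and Icam1 (234 CPM in PreASKO and 217 CPM in floxed), ligands of alpha4 and beta2 integrins, were slightly higher.

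The order of levels per kilobase was alike in the libraries. In both, Lamc1 was followed by Lama4, Itgb1 and Lamb1 in varying order and by Lama2 and Lamb2. Itgb1 ranked 2 in PreASKO, at 117.7 CPM per kilobase, and 3 in floxed, at 106 CPM per kilobase, and Lama4 ranked 3 in PreASKO, at 114 CPM per kilobase, and 2 in floxed, at 133 CPM per kilobase. Adjacent subunits whose counting intervals overlapped were Itga5 and Itgb5 in PreASKO and Itga11 and Itga5 in floxed among the abundant ones. Below about 1 CPM per kilobase most neighbours in the order overlapped.

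**Figure D5:**
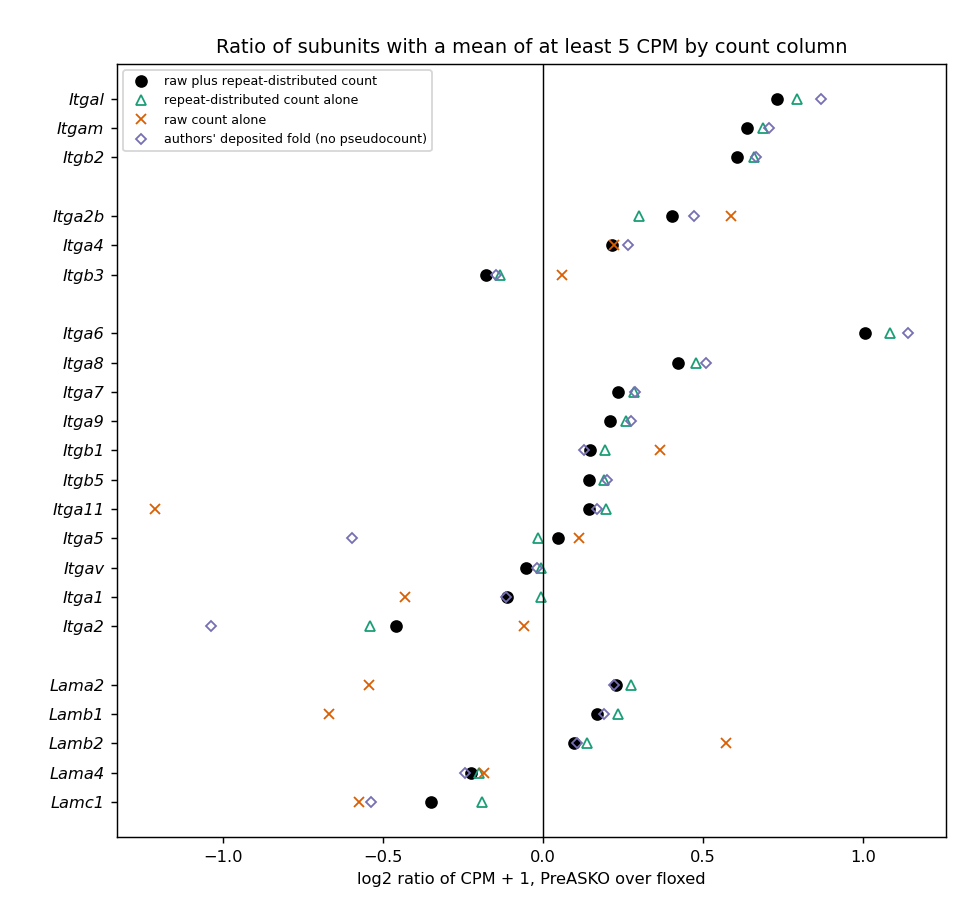
Log2 ratio of subunits with a mean of at least 5 CPM, computed from the summed count (black circles), the repeat-distributed count alone (green triangles) and the raw count alone (orange crosses), and the fold in the authors' deposited table (purple diamonds). Circles and triangles lie close for most subunits, while the raw count departs for Itga11, Lama2 and Lamb1, where it holds few reads, and the authors' fold departs for Itga5 and Itga2.

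The share of raw counts differed with the number of transcripts annotated for a gene. Among the 10 subunits with 1 RefSeq transcript and at least 100 counts in floxed, the median raw share in floxed was 29.0%, and among the 18 with 2 or more it was 0.0214%. Over all genes with that many counts in floxed, the median raw share was 49.5% for those with 1 transcript and 0.660% for those with 2 or more. Itgav, Itgb2, Itgb5, Itga7, Itga8, Itgb4 and Lama3 were among the subunits with no raw count in either library. The values of such subunits rest on the repeat-distributed column. The log2 ratio of Itga5 was 0.05 with both counts and -0.02 with the repeat-distributed count, and that of Itga11 was 0.14 with both and -1.21 with the raw count, which held 10 of its counts in PreASKO and 52 in floxed. With the raw count alone Itgb3, Lama2 and Lamb1 changed sign too. The use of strand is not stated, and antisense genes overlap 8.04% of the exonic bases of Itga4, 7.66% of those of Itgb4, 6.27% of those of Lamc3 and 5.90% of those of Itgav, so that some of their counts may belong to the partner.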

How the data were processed

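Polyadenylated RNA of 2 pooled libraries, 1 per genotype, was measured. Per the file headers, the authors deposited 2 numbers for a gene in each library: a raw count, always whole, and a repeat-distributed count, handled as an estimated count since some values hold fractions. The deposited table gives a fold too, which is a ratio with PreASKO on top and a scaling that no source states. The submitters' processing notes name mm10 as the build; aligner, counter and strand setting are not stated in them.

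Both counts were summed per gene and divided by the library total (CPM). Of 23669 rows, 24 carried a date for a symbol and were resolved by Entrez ID, and rows of 21 IDs were summed. Symbols and coordinates came from RefSeq GRCm38.p6, on which mm10 rests, and lengths from GENCODE M21. Log2 ratios are differences of log2(CPM + 1), summarised where the mean over libraries reached 1 CPM. Intervals are exact 95% Poisson, exact 95% binomial (Clopper-Pearson) or, for quotients of proportions, 95% normal intervals on the log scale, and cover counting error only. A fold of 2, from the series design text, and one of 1.5 were used to count genes. A floor of 3 counts is 0.0798 CPM in PreASKO and 0.0486 CPM in floxed. The procedure was tested on simulated data. Python 3.11.15, pandas 2.3.3 and scipy 1.17.1 were used.

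The symbol rule for members, the gene lists, cutoffs and tests were chosen with earlier results of these data known. No measured value entered the symbol rule itself. Measured subunits were named, with the members of each pathway list that had the largest log2 ratios, up to 4, and up to 3 of each marker list by level, and any others were chosen after their values were seen. Of the listed genes, Fermt1, Sgca, Nid1, Cldn4, Krt8, Krt18, Foxd3, Gp6, Myod1, Ncr1 and S100a9 were not analysed here. Values of a few genes that enter the counts and sums are not reported here. Alternatives were 2 other pseudocounts, 2 other minimum means, another scaling, each count column alone and the authors' fold.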

Additional observations from a re-analysis of the deposited data

How the results depend on the processing

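No paired analysis was possible because each genotype has 1 library, and no replicate could be left out. The median log2 ratio of leukocyte integrins, 0.61, was 0.48 at a pseudocount of 5, 0.49 with no minimum mean, and 0.41 with the raw count alone, which left 1 subunit. That of laminins, 0.10, was 0.027 at a mean of at least 5 CPM, 0.13 with median-of-ratios scaling, and -0.36 with the raw count alone, which left 6 subunits. That of tissue integrins, 0.14, lay between 0.11 and 0.19 under all alternatives. Genes at least 2-fold higher and lower numbered 515 and 412 at a pseudocount of 0.1, 58 and 28 at 5, 153 and 93 at a mean of at least 5 CPM, 465 and 907 with the raw count alone, 597 and 471 by the authors' deposited fold, and 1080 and 1120 at 1.5-fold, against 289 and 208; pseudocounts change low genes, the minimum removes them, and the cause was not tested otherwise. Median-of-ratios scaling raised log2 ratios by 0.033 at the median and changed the sign of no measured subunit. Signs changed, among others, for Itga5 and Lamc3 with the repeat-distributed count alone, for Itgb3, Itga11, Lama2 and Lamb1 with the raw count alone, and for Itga5 by the authors' deposited fold. Counts of 11 to 123 stand behind Lama1, Lama3 and Lama5 in either library, so depth limits the low laminins.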
